A study of Mus musculus with 72 samples.

Results

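The light difference in the suprachiasmatic nucleus (SCN) of mice on a diet without tryptophan (-Trp) is described here for the first part of the day. Of the 72 SCN libraries of the series, 18 entered: 9 from mice housed under light/dark cycles (LD) and 9 from mice in constant darkness (DD), 3 mice at each of 0, 4 and 8 h. All were male C57BL/6 mice aged 8 weeks that were fed ad libitum, housed singly under the schedule for 1 week before they ate the diet for 2 weeks, so that both sides shared the missing tryptophan and differed in the light schedule. RNA was sequenced from the dissected SCN of each mouse with a stranded mRNA kit, and each value is an FPKM, a fragment count divided by transcript length and library size.

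The libraries were placed by a rule and not by the names of their columns. The deposited columns run in an order that is shifted by 12 columns against the authors' supplementary copy of the control values, and for all 36 of the 36 control columns of that copy the placement holds by equal values. The -Trp columns were placed by continuing this shift. By name, the LD libraries of 0 and 4 h used here are -Trp DD of 16 and 20 h and those of 8 h are control (Ctrl) LD of 0 h, while the DD libraries of 0 and 4 h are -Trp LD of 16 and 20 h and those of 8 h are Ctrl DD of 0 h. None of the 18 was placed by equal values, and the DD libraries of 8 h rest on carrying the shift past the last table to the start of the first. Every group name below is the placed one, and the comparison by column name is given at the end.

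The SCN is the central pacemaker of the brain. Its neurons carry a feedback loop in which CLOCK and BMAL1 (Arntl) switch on Per and Cry genes whose proteins then repress them, and REV-ERB (Nr1d1, Nr1d2) and ROR proteins regulate Arntl. Light reaches it from the retina through glutamate and PACAP and adjusts the loop through CREB and immediate early genes such as Per1 and Fos. It lies above the optic chiasm, with the preoptic area and basal forebrain in front of it and the arcuate and lateral hypothalamus behind and beside it.

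Genes of time were set beside the placement. In LD, Dbp, an output factor of the clock, had means of 18.6 ± 0.58, 24.3 ± 2.2 and 33.1 ± 4.8 FPKM (SD, n = 3) at 0, 4 and 8 h, and Nr1d1 had 27.3 ± 0.35, 34.5 ± 1.3 and 36.4 ± 3.7 FPKM. In DD the means did not follow this order, with 13.3 ± 2.3, 21.6 ± 1.4 and 18.6 ± 3.3 FPKM for Dbp and 25.6 ± 3.5, 27.9 ± 4.7 and 22.6 ± 1.8 FPKM for Nr1d1. Markers of the SCN were above 0 in all 18 libraries, but not at like levels. DD 4 h replicate 3 had the lowest values of the 18 for the peptides Vip (1.45), Nms (0.233), Grp (1.58) and Prok2 (0.232 FPKM). Its Avp was 338.7 FPKM. Avp, an SCN peptide that neighbouring magnocellular neurons also make, lay between 262 and 714 FPKM, Vip between 1.45 and 29.3 FPKM and Lhx1, a transcription factor that defines the SCN, between 0.480 and 2.14 FPKM. Oxt, a peptide of magnocellular neurons and not of the SCN, lay between 430.1 and 2269 FPKM. Fewer cells of a type and less RNA per cell cannot be told apart in such samples.

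The 2 sides differed in total FPKM before any gene was compared. The sum over all rows of a library was 419826 to 492024 (mean 461897 ± 20500, SD, n = 9) in LD and 317790 to 411944 (mean 340809 ± 28063, n = 9) in DD, a ratio of 1.36 (exact two-sided permutation test, p = 4.11e-05, the smallest that 9 against 9 can give). The ranges did not overlap. The 411944 was DD 4 h replicate 2, and the other DD libraries ended at 344865. The sum was spread over many genes. Of 688 genes whose mean reached 100 FPKM, 640 had the higher mean in LD, and the 10 that added most made 7.59% of the difference. They were Fth1 (ferritin heavy chain, 2239 ± 327 against 1014 ± 211 FPKM, unscaled), Rps29 (2648 ± 239 against 1478 ± 269), Cst3 (2644 ± 221 against 1701 ± 320), Apoe (2359 ± 271 against 1462 ± 288), Oxt (1581 ± 466 against 687 ± 264), Ppia, Rps15, Rpl41, Rps21 and Rps27rt. The long non-coding RNA Meg3 was the largest of those that went the other way, with 225 ± 76.4 in LD against 796 ± 109 FPKM in DD.

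**Figure D1:**
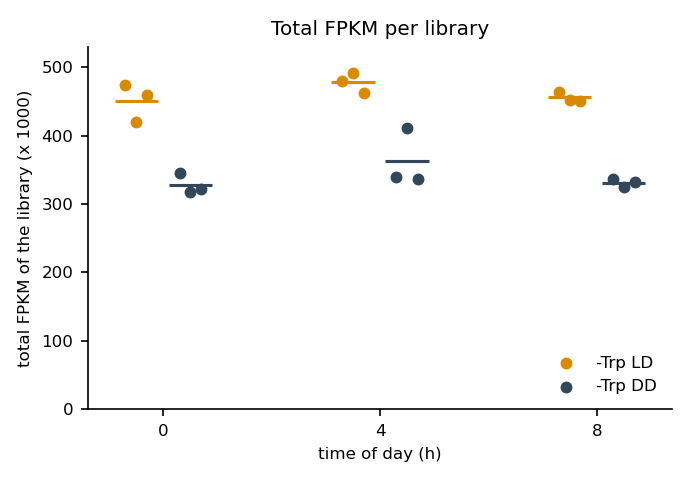
Total FPKM of each of the 18 libraries (y axis) at 0, 4 and 8 h (x axis), with the mean of 3 libraries as a bar, LD in orange and DD in blue-grey. The LD libraries lie between 419826 and 492024; 8 DD libraries end at 344865, and DD 4 h replicate 2 lies at 411944.

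Each library was therefore scaled by its median ratio to the other libraries before genes were tested (limma on log2 values, time of day as a factor, threshold of 0.05 after Benjamini-Hochberg adjustment). After this scaling the median gene differed by 0.017 on the log2 scale. Without scaling it differed by 0.10, and with every library brought to the same sum by -0.30, so that directions of small differences depend on this choice. Of 14363 genes tested, 10274 (71.5%) passed, 5357 (37.3%) higher in LD and 4917 (34.2%) higher in DD. With the same sum for every library the split was 2182 against 8596, and without scaling 6197 against 4155. A called gene is thus common in these data, and large differences were rarer: 192 genes (1.34%) were at least 2-fold higher in LD and 583 (4.06%) at least 2-fold higher in DD. Groups of 3 libraries did not overlap at each of the 3 times for 2949 genes (20.5%) in the LD direction and for 2149 (15.0%) in the DD direction.

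Light schedule and total FPKM went together except in DD 4 h replicate 2. With the side of the gap in total FPKM as a second term, 946 genes (6.59%) were called, 518 (3.61%) higher in LD and 428 (2.98%) higher in DD. In this fit the light difference rests on 1 DD library, DD 4 h replicate 2, against 9 of LD. Light can thus not be told apart from that 1 library for any gene, called or not. A call in this fit therefore does not separate light from total FPKM. Where total FPKM is named as a term below, the term is the side of the gap, high or low. Values given with ± are log2 differences of LD minus DD with their SE unless another unit is named. In the text below, calls are from the fit without this term, and list members that pass with it are named, or counted for the respiratory chain genes. Of lists for which no such gene is given, 0 members passed. List counts stand beside the 37.3% of all genes called higher in LD and the 34.2% called higher in DD.

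The genes with the largest excess in LD mark cholinergic and GABAergic neurons of the basal forebrain and telencephalon. Lhx8 (chromosome 3, 154306294 to 154330659, GRCm38), a transcription factor of forebrain cholinergic neurons, ranged from 5.91 to 18.3 FPKM (median 11.98) in LD and 0.0147 to 1.13 FPKM (median 0.263) in DD, a log2 difference of 4.09 ± 0.21 (SE, adjusted p = 3.58e-10). Every LD library was above every DD library, and the highest DD value was DD 0 h replicate 1. Lhx6, which specifies interneurons of the same origin, ranged from 10.1 to 27.7 FPKM (median 17.97) in LD and 0.281 to 2.56 FPKM (median 0.400) in DD, a log2 difference of 4.04 ± 0.24 (SE, adjusted p = 1.77e-09). Chat, which makes acetylcholine, ranged from 3.80 to 11.5 FPKM (median 7.07) in LD and 0.149 to 0.709 FPKM (median 0.256) in DD, a log2 difference of 3.11 ± 0.18 (SE, adjusted p = 1.77e-09), and Slc18a3, its vesicular transporter whose gene lies inside Chat on the same strand, differed by 2.61 ± 0.15. Overlapping reads of these 2 genes may not be separable. The neurotrophin receptor Ngfr differed by 2.86 ± 0.17, and Slc10a4, a vesicle protein of cholinergic neurons, by 2.73 ± 0.16. Pvalb, a calcium buffer of fast interneurons, differed by 2.64 ± 0.21. AI606473, a transcript that starts next to Lhx8 on the other strand, differed by 3.25 ± 0.15, and the 2 rows of Gm21586, a predicted gene that reached 1.74 FPKM in DD 0 h replicate 2 and 1.35 to 4.39 FPKM in LD, belong to the same group by the naming rule. Lhx8, Lhx6, AI606473, Chat, Ngfr, Slc10a4, Pvalb, Slc18a3 and both rows of Gm21586 were also called with total FPKM as a term.

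Further genes outside that rule were chosen after their values were seen. That they were also higher in LD was set by this choice and is no separate support. The choline transporter Slc5a7 differed by 2.55 ± 0.17, the cortical factor Tbr1 by 2.18 ± 0.19, and the peptides Gnrh1, which preoptic neurons use to drive reproduction, and Nts by 2.14 ± 0.18 and 2.18 ± 0.25. Gnrh1 ranged from 26.1 to 57.5 FPKM (median 47.2) in LD and 4.45 to 14.5 FPKM (median 9.92) in DD. In Nts, DD 0 h replicate 1 stood at 50.4 FPKM, inside the LD range of 45.2 to 84.0, while the other DD libraries ended at 17.1. This library also had the highest DD values of Lhx8 (1.13), Chat (0.709) and Tbr1 (1.40 FPKM). Slc5a7, Tbr1, Gnrh1 and Nts were called with total FPKM as a term.

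The genes highest in DD include markers of the lateral and tuberal hypothalamus. Pmch, the precursor of melanin-concentrating hormone (chromosome 10, 88091072 to 88092375), ranged from 0.864 to 37.96 FPKM (median 3.39) in LD and 14.5 to 474 FPKM (median 344) in DD, a log2 difference of -5.64 ± 0.62 (SE, adjusted p = 2.97e-07). The ranges overlapped through LD 8 h replicate 3, at 38.0, and DD 0 h replicate 1, at 14.5 FPKM. Parpbp, which lies over Pmch on the opposite strand, followed it (-3.66 ± 0.41). Npvf, an RFamide peptide of the dorsomedial hypothalamus, was at 0 in 6 LD libraries and at most 0.156 FPKM in the others, against 0.256 to 8.12 FPKM in DD. Rax and Col23a1, genes of the tanycytes that line the third ventricle, ranged in DD up to 4.53 and 18.8 FPKM and differed by -2.36 ± 0.30 and -2.55 ± 0.28. In both, DD 0 h replicate 1 fell inside the LD range. Pmch, Parpbp and Npvf were called with total FPKM as a term, whereas Rax (-2.15) and Col23a1 (-2.19) kept nearly their size and were not called.

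Other genes of the 12 highest in DD are not on the marker lists of hypothalamic cells. Zim1 and Ipw, both from imprinted regions, ranged from 1.66 to 2.94 FPKM (median 2.57) in LD and 5.97 to 21.7 FPKM (median 19.6) in DD and from 22.6 to 47.3 FPKM (median 30.7) in LD and 73.6 to 237 FPKM (median 210.1) in DD. Zbed6, a transposon-derived repressor in an intron of Zc3h11a, ranged from 0.688 to 2.14 FPKM (median 1.12) in LD and 2.09 to 11.4 FPKM (median 10.9) in DD, and Ago3, a small RNA binding protein, from 0.355 to 0.908 FPKM (median 0.553) in LD and 0.718 to 5.14 FPKM (median 5.02) in DD. Rreb1, Cdr1 and 4933403O08Rik differed by -2.35 ± 0.19, -2.22 ± 0.23 and -2.11 ± 0.21. In Zim1, Zbed6, Ago3 and Ipw, DD 0 h replicate 1 was at the level of the other DD libraries and DD 4 h replicate 2 was the lowest of DD: 5.97 for Zim1, 2.09 for Zbed6, 0.718 for Ago3 and 73.6 FPKM for Ipw, where the other DD libraries started at 14.97, 9.47, 3.43 and 162 FPKM. Zbed6, Cdr1, Ago3 and 4933403O08Rik were not called with total FPKM as a term (-0.77, -0.45, -0.29 and -0.43), while Zim1, Ipw and Rreb1 were. Zbed6 and Cdr1 lie over other genes of the tables (Zc3h11a, C230004F18Rik), so their values are uncertain.

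**Figure D2:**
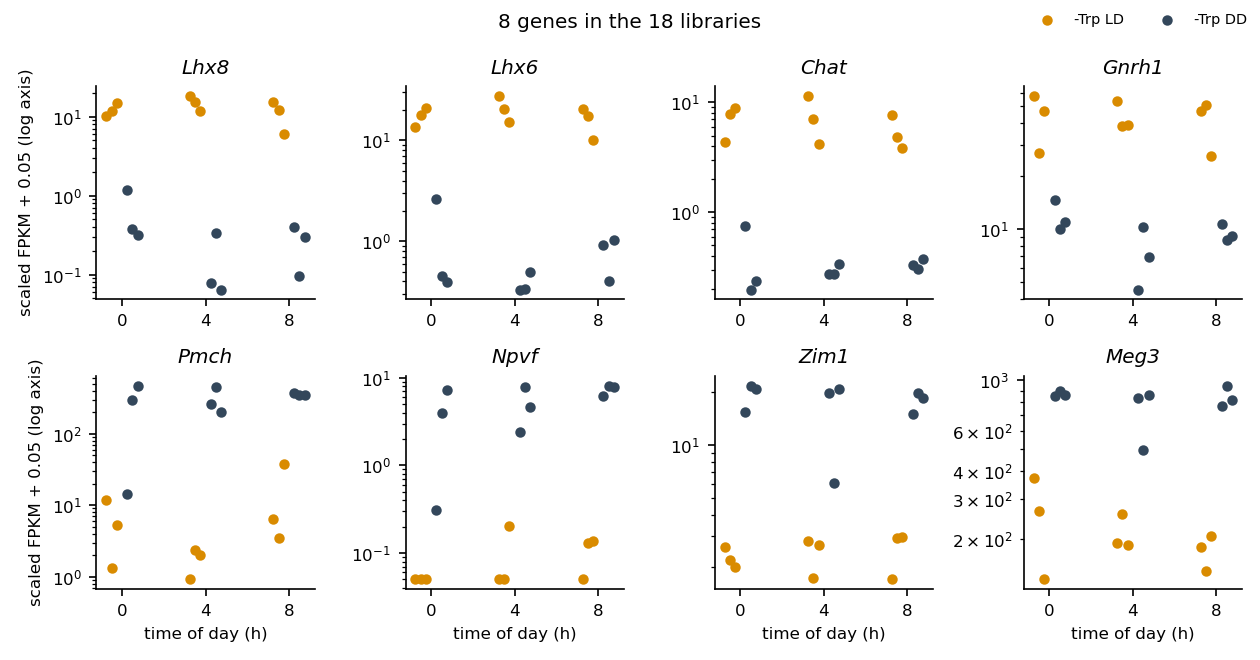
Scaled FPKM plus 0.05 (y axis, logarithmic) of 8 genes in each of the 18 libraries at 0, 4 and 8 h (x axis), 1 point per library, LD in orange and DD in blue-grey. Lhx8, Lhx6, Chat and Gnrh1 are higher in LD and Pmch, Npvf, Zim1 and Meg3 in DD; 1 DD library of 0 h leaves its group in Lhx6, Pmch and Npvf, and 1 of 4 h in Zim1 and Meg3.

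Markers of neighbouring hypothalamic neurons moved both ways. Of 11 tested, 4 were higher in LD, 6 higher in DD and 1 (Kiss1) was not called, and 9 of the 10 called were at least 2-fold apart. Oxt, Crh and Trh, peptides of the paraventricular nucleus, and Tac2, which neurons of the arcuate nucleus also make, were higher in LD. Crh ranged from 5.90 to 10.1 FPKM (median 8.57) in LD and 0.590 to 3.40 FPKM (median 1.56) in DD, a log2 difference of 2.02 ± 0.20 (SE, adjusted p = 1.09e-07). Tac2 ranged from 60.4 to 85.97 FPKM (median 74.4) in LD and 29.01 to 50.4 FPKM (median 36.2) in DD. Agrp, Npy, Pomc and Ghrh, which mark other neurons of the arcuate nucleus, and Hcrt and Pmch of the lateral hypothalamus were higher in DD. Agrp, the hunger peptide of the arcuate nucleus, ranged from 0.0597 to 3.41 FPKM (median 0.537) in LD and 0.457 to 115 FPKM (median 71.1) in DD, a log2 difference of -5.28 ± 0.69 (SE, adjusted p = 2.31e-06). Npy of the same neurons ranged from 10.2 to 77.5 FPKM (median 23.3) in LD and 8.15 to 343 FPKM (median 229) in DD, and Hcrt (orexin) of the lateral hypothalamus from 0.223 to 24.7 FPKM (median 0.974) in LD and 13.9 to 164 FPKM (median 50.7) in DD. DD 0 h replicate 1 was at 0.457 FPKM for Agrp, 5.94 for Ghrh and 0.237 for Tbx3, all inside the LD range, and at 8.15 FPKM for Npy, under the lowest LD value. Without this library the counts stayed at 4 and 6. Crh, Tac2, Agrp, Hcrt and Pmch were called with total FPKM as a term. The summed level of the list did not separate the sides, with 1266 to 2643 FPKM in LD and 1233 to 2389 FPKM in DD. The part of these markers in the other differences was not tested.

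Pituitary hormones varied between libraries of a side. Gh was at 632 and Prl at 110 FPKM in LD 4 h replicate 2, where Pomc also reached 89.9 FPKM, against at most 10.2 for Gh and 11.2 FPKM for Pomc in the other LD libraries. In DD the highest Gh value was 24.1 FPKM, in 8 h replicate 1. Of 5 pituitary markers tested, Cga alone was called, higher in DD (0 to 20.5 against 0.124 to 38.0 FPKM). It was at 6.52 FPKM or more in 5 of the DD libraries, and in LD above 1 FPKM in 4 h replicate 2 only.

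Genes that mark SCN identity, mostly transcription factors, were lower in LD or not called. Of 9 tested, 7 were higher in DD and 0 higher in LD, with a median of -0.51 against 0.017 over all genes. Six6, needed for the SCN to form, ranged from 0.631 to 2.11 FPKM (median 1.47) in LD and 3.05 to 4.87 FPKM (median 4.07) in DD, a log2 difference of -1.20 ± 0.14 (SE, adjusted p = 6.83e-07), with no overlap, and Syt10, a synaptotagmin rich in the SCN, differed by -1.67 ± 0.19. Lhx1 (-0.45 ± 0.16 SE, adjusted p = 0.0173), Rora (-0.51 ± 0.11) and Zfhx3 (-0.32 ± 0.11) had smaller excesses in DD. Six3 (0.0083 ± 0.089) and Rgs16 (0.51 ± 0.23) were not called. Tbx3 (-2.49 ± 0.31) and Rax, also on this list, are genes of the arcuate nucleus and of tanycytes as well. Six6 was the 1 gene of the list called with total FPKM as a term.

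Peptides of the SCN did not move together. Of 15 peptides and receptors tested, 6 were higher in LD and 3 higher in DD, which turned to 3 and 6 with every library scaled to the same sum. Those that mark SCN cell groups were mostly not called: Vip of the retina-receiving core ranged from 9.15 to 28.8 FPKM (median 16.2) in LD and 1.45 to 29.3 FPKM (median 15.1) in DD, Avp of the shell from 262 to 459 FPKM (median 335) in LD and 294 to 714 FPKM (median 369.8) in DD and Grp from 3.35 to 7.51 FPKM (median 4.82) in LD and 1.58 to 6.28 FPKM (median 4.48) in DD, with adjusted p-values of 0.4967, 0.09996 and 0.1329. Prok2, an output signal of the SCN that is high by day, ranged from 0.968 to 2.58 FPKM (median 1.39) in LD and 0.232 to 1.90 FPKM (median 0.435) in DD, a log2 difference of 0.73 ± 0.20 (SE, adjusted p = 0.00325), and Nms, a peptide of most pacemaker neurons, from 2.13 to 5.63 FPKM (median 4.08) in LD and 0.233 to 4.74 FPKM (median 2.26) in DD, a log2 difference of 0.85 ± 0.28 (SE, adjusted p = 0.0122). The lowest values of Vip, Grp, Prok2 and Nms were all in DD 4 h replicate 3. Cck (1.25 ± 0.37), Gal (0.62 ± 0.15), Sst (0.53 ± 0.12) and Penk (1.45 ± 0.20), peptides of many regions, were also higher in LD. Penk ranged from 105 to 444 FPKM (median 135) in LD and 48.1 to 73.2 FPKM (median 58.03) in DD. It was the 1 gene of the 15 whose sides did not overlap at each time, against 20.5% of all genes in the LD and 15.0% in the DD direction. Tac1 (-0.70 ± 0.24), Pdyn (-1.08 ± 0.31) and Cartpt (-0.62 ± 0.22) were higher in DD. Pdyn reached 59.1 and Penk 444 FPKM in LD 0 h replicate 2, each the highest of the 18. The receptors Vipr2, Avpr1a and Prokr2 were not called, and Avpr1b and Grpr were below the minimum mean of 0.5 FPKM. Without the 8 h libraries 4 genes of the list were higher in LD and 0 higher in DD, and without the 4 h libraries 6 and 0. With equal sums its median was -0.12.

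Core clock genes were more often higher in DD. Of 16 tested, 9 were higher in DD and 3 higher in LD, with a median of -0.26. For rhythmic genes, here and among the output factors below, the 3 times compared cannot tell a difference in level from one in phase. Which of these holds was not tested. Per3 had the largest difference of the list and ranged from 3.17 to 4.73 FPKM (median 3.97) in LD and 6.62 to 13.6 FPKM (median 11.4) in DD, a log2 difference of -1.28 ± 0.11 (SE, adjusted p = 2.19e-08). No LD library reached a DD library. Clock ranged from 4.41 to 6.52 FPKM (median 5.55) in LD and 6.03 to 11.6 FPKM (median 10.7) in DD, a log2 difference of -0.78 ± 0.089 (SE, adjusted p = 4.83e-07), and Per2 from 2.22 to 3.91 FPKM (median 3.34) in LD and 3.91 to 7.92 FPKM (median 5.38) in DD, a log2 difference of -0.70 ± 0.10 (SE, adjusted p = 9.11e-06), with 3 LD below 3 DD libraries at each time in both. Smaller excesses in DD were found for Fbxl21 (-0.52 ± 0.11), a ubiquitin ligase subunit for CRY, Rora (-0.51 ± 0.11), Nr1d2 (-0.36 ± 0.090), Timeless (-0.34 ± 0.11), Per1 (-0.28 ± 0.075) and Arntl (-0.25 ± 0.064). Higher in LD were the repressors Cry1 (0.28 ± 0.059) and Cry2 (0.18 ± 0.052) and Nr1d1 (0.36 ± 0.083). Rorb, Npas2 and the kinases Csnk1d and Csnk1e were not called. Per3 was the only gene of the list called with total FPKM as a term. DD 4 h replicate 2 had the lowest DD value of Clock (6.03) and Per2 (3.91 FPKM).

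The direction of several of these depends on scaling. With the same sum of FPKM for every library 13 core clock genes were higher in DD and 0 in LD, and Cry1 (-0.047) and Cry2 (-0.16) turned sign. The light difference also moved with transcript length over all genes, and the Per genes are long, at 4671, 5833 and 5999 bases for Per1, Per2 and Per3. Relative to the median of genes of their length class (genes cut by transcript length into 5 classes), the median of the list was -0.13.

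Output factors of the clock, the PAR bZIP and bHLH proteins that pass time on to other genes, differed less. Dbp ranged from 17.99 to 37.8 FPKM (median 24.2) in LD and 10.8 to 22.5 FPKM (median 19.7) in DD, a log2 difference of 0.49 ± 0.099 (SE, adjusted p = 0.000264). At 0 h it was 17.99, 19.1 and 18.6 FPKM in LD and 10.8, 15.5 and 13.5 in DD, and at 8 h it was 33.3, 28.2 and 37.8 against 19.7, 21.3 and 14.9 FPKM, without overlap at either time. At 4 h the libraries overlapped. Hlf (0.25 ± 0.085 SE, adjusted p = 0.013) and Nfil3 (0.26 ± 0.10 SE, adjusted p = 0.0295) were higher in LD, Tef (-0.16 ± 0.055 SE, adjusted p = 0.0149) was higher in DD, and Ciart, Bhlhe40 and Bhlhe41 were not called. Thus 3 of 7 were higher in LD and 1 higher in DD, against 0 and 3 with equal sums and 1 and 1 with equal upper quartiles. Without the 0 h libraries the counts were also 1 and 1. Nfil3 lost its call in 7 of the 18 fits with 1 library left out.

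CLOCK and BMAL1 bind the E-box CACGTG, and CREB the element TGACGTCA. Both read alike on either strand. In RefSeq windows of the 250 bases before each start (GRCm38.p6), 6.02% of 32851 held the E-box and 1.55% the CREB element. Of the 14 core clock genes in that table, 2 held an E-box there (Cry1 and Per1), and of 6 output factors 3 did (Bhlhe41, Ciart and Tef). The stretches of Per1, Cry1 and Ciart are shown because these genes share the E-box, in capitals, and did not go the same way. Ciart also held E-boxes from 44 and 58 bases before the start, which are not shown. The last stretch has in capitals the CREB element of Dusp1, an immediate early gene described below. Its E-box, from 126 bases before the start, is in small letters.
Per1 (chr11:69098759-69098812, plus strand, motif from 166 bases before the start): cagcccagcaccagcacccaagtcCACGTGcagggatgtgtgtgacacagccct
Cry1 (chr10:85185085-85185138, minus strand, motif from 60 bases before the start): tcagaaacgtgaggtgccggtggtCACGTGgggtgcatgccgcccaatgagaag
Ciart (chr3:95882315-95882368, minus strand, motif from 116 bases before the start): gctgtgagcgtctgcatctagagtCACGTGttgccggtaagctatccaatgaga
Dusp1 (chr17:26508584-26508639, minus strand, motif from 143 bases before the start): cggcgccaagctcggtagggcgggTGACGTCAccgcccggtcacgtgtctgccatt
Per1 was higher in DD, Cry1 and Dusp1 were higher in LD, and Ciart was not called. Among genes tested, 40.6% of the 1042 with an E-box in such a window were higher in LD and 32.9% higher in DD, against 37.1% and 34.6% of the 9698 without. No match says only that these letters are not in this window.

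**Figure D3:**
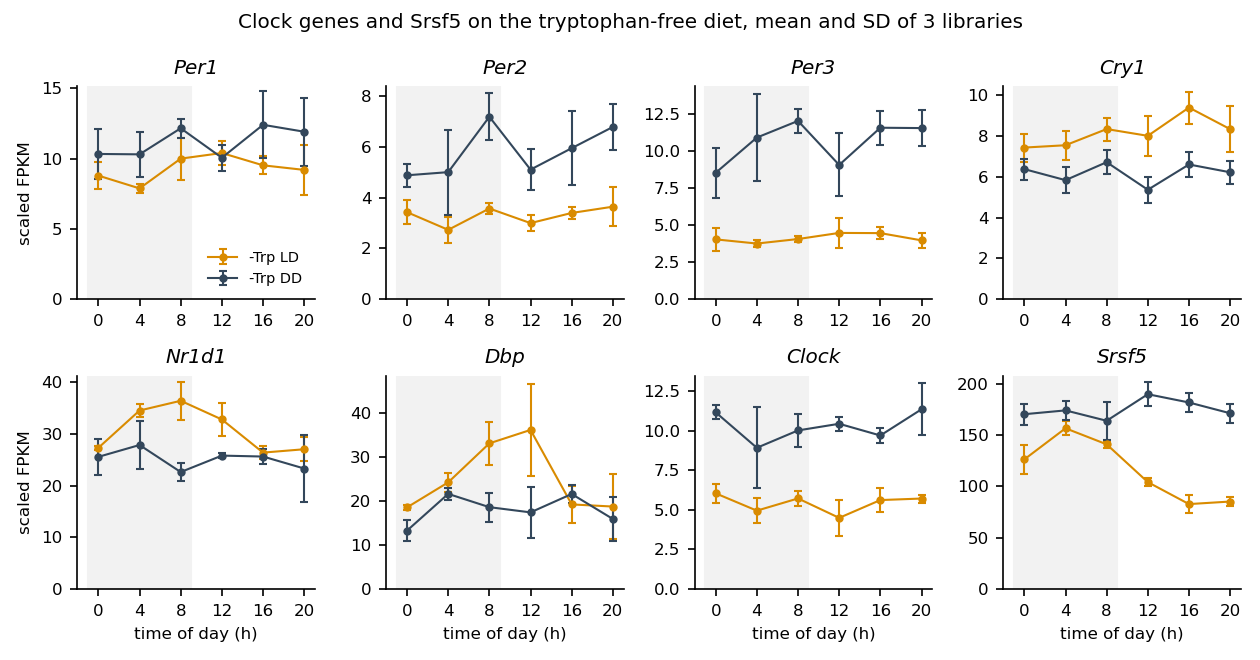
Scaled FPKM (y axis) of 7 clock genes and Srsf5 at the 6 times of day (x axis, h) on the -Trp diet, as mean and SD of 3 libraries, LD in orange and DD in blue-grey. The grey field marks the 0, 4 and 8 h compared here; Per3 and Clock are higher in DD at all 6 times, and Srsf5 falls from 157 FPKM at 4 h to 82.8 FPKM at 16 h in LD.

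Genes of the immediate early list were higher in LD in 9 of 20 tested and higher in DD in 2, with a median of 0.32. Neurons switch many, but not all, of them on within minutes of input. Jund ranged from 33.5 to 53.03 FPKM (median 41.2) in LD and 18.2 to 33.04 FPKM (median 23.1) in DD, a log2 difference of 0.82 ± 0.10 (SE, adjusted p = 1.12e-06). It was the only 1 of the 20 whose 3 LD libraries lay above the 3 DD libraries at each time, against 20.5% of all genes. Dusp1 (0.46 ± 0.080 SE, adjusted p = 5.82e-05), Arc (0.67 ± 0.13 SE, adjusted p = 0.000127) and Ier2 (0.58 ± 0.13 SE, adjusted p = 0.000682) followed. Fos itself ranged from 2.28 to 5.44 FPKM (median 3.01) in LD and 1.36 to 3.47 FPKM (median 2.29) in DD and overlapped at 2 of the 3 times (0.33 ± 0.14 SE, adjusted p = 0.0413). Npas4, which answers to calcium entry in neurons, went the other way (-0.58 ± 0.14), as did Gem (-0.35 ± 0.097), and Egr1, Egr3 and Rasd1 were not called. Scaled to the same sum, the list split 3 against 6, and without the 0 h libraries 6 against 2. Nr4a2, not called otherwise, was the 1 gene called with total FPKM as a term.

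Receptors and kinases of the retinal input were higher in DD in 8 of 15 and higher in LD in 2, with a median of -0.40. The AMPA receptor subunit Gria2 ranged from 21.7 to 43.2 FPKM (median 28.4) in LD and 36.9 to 85.9 FPKM (median 78.1) in DD, a log2 difference of -1.33 ± 0.13 (SE, adjusted p = 9.03e-08), and Gria3 (-0.65 ± 0.086), Rps6ka5 (-0.78 ± 0.12) and the NMDA receptor subunit Grin2a (-1.27 ± 0.19) had the next smallest p-values. With equal sums 0 were higher in LD and 14 in DD. Relative to genes of like transcript length the median was -0.095.

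Long non-coding RNAs that stay in the nucleus were higher in DD in 7 of 7 tested (median -1.67). Meg3 ranged from 132 to 370.2 FPKM (median 191) in LD and 495 to 949 FPKM (median 849.7) in DD, a log2 difference of -1.96 ± 0.16 (SE, adjusted p = 1.89e-08), Miat from 12.4 to 36.95 FPKM (median 21.2) in LD and 59.8 to 95.3 FPKM (median 87.9) in DD, a log2 difference of -1.98 ± 0.15 (SE, adjusted p = 8.48e-09), and Malat1 from 17.4 to 42.7 FPKM (median 27.3) in LD and 49.5 to 103 FPKM (median 90.8) in DD. Snhg11 (-1.84 ± 0.16), Neat1, Rian and Mirg completed the list. No LD library reached a DD library for Meg3, Miat, Malat1 or Snhg11, and DD 4 h replicate 2 was the lowest of the DD side in all of these 4 (495, 59.8, 49.5 and 527 FPKM). Meg3, Miat, Snhg11 and Neat1 were called with total FPKM as a term.

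Genes of ribosomes and mitochondria had the opposite order. Of 80 cytosolic ribosomal protein genes 79 were higher in LD (median 0.64), led by Rplp2 (814 to 1065 FPKM in LD and 354 to 586 FPKM in DD, 1.11 ± 0.074), Rps9 (0.70 ± 0.051), Rps14 (0.86 ± 0.077) and Rps15 (0.86 ± 0.078), and Rps27 was not called. Of 81 nuclear genes of the respiratory chain 79 were higher in LD (median 0.81). Cox6a1 ranged from 451 to 639 FPKM (median 526) in LD and 202 to 297 FPKM (median 224) in DD, a log2 difference of 1.17 ± 0.078 (SE, adjusted p = 3.96e-09), followed by Sdhc (0.87 ± 0.059), Ndufb8 (1.21 ± 0.084) and Uqcrc1 (1.01 ± 0.071), and Atp5s and Cox8b were not called. Under equal sums 69 and 73 were higher in LD, at medians of 0.28 and 0.46. With total FPKM as a term 16 respiratory chain genes and, of the ribosomal list, Rplp2, Rps9 and Rps14 were called. The summed ribosomal level was 44883 to 59215 FPKM in LD and 28385 to 43110 FPKM in DD, where the highest was again DD 4 h replicate 2. Ribosomal protein genes have many processed copies, so their reads may be shared.

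The light difference moved with transcript length. Of genes tested, 95.6% had a length in GENCODE M21. Genes were cut by length into 5 classes of like size. In the shortest class (108 to 1918 bases) the median was 0.39, with 64.2% higher in LD and 10.8% higher in DD. The median then fell by classes through 0.19, 0.021 and -0.10 to -0.39 in the longest (5262 bases and more), where 9.69% were higher in LD and 68.4% higher in DD. In the Ctrl libraries of the same times the medians ran from 0.49 to -0.51. Within their length classes the medians of ribosomal, respiratory chain and long nuclear genes were 0.26, 0.46 and -1.28. The part of length in the light difference was not tested.

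**Figure D4:**
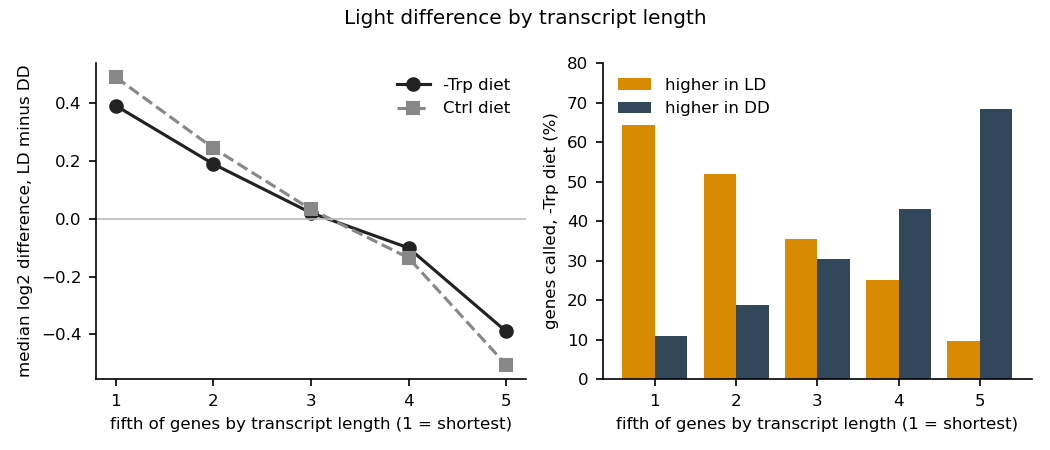
Light difference in 5 classes of genes by transcript length (x axis, 1 the shortest). Left, the median log2 difference of LD minus DD on the -Trp (circles) and Ctrl (squares) diets; right, the percentage of genes called higher in LD (orange) and in DD (blue-grey) on the -Trp diet. The median falls from 0.39 in the shortest to -0.39 in the longest class.

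Replication-dependent histone genes, whose messages lack a poly(A) tail, were higher in LD in 21 of 28 tested and higher in DD in 1. Hist3h2ba ranged from 33.6 to 49.3 FPKM (median 40.1) in LD and 19.6 to 30.5 FPKM (median 22.2) in DD (0.80 ± 0.076), and Hist1h2bc (0.74 ± 0.073), Hist2h2aa1 (1.04 ± 0.11) and Hist1h2bh (0.75 ± 0.091) followed, all members of families with near-identical copies. With equal sums 12 were higher in LD and 3 in DD, and Hist1h2ba was called with total FPKM as a term. Genes of small non-coding RNAs were mostly below the minimum level in these mRNA libraries. Of 50 tested 1 was higher in LD and 6 in DD, led by Mir124a-1hg (-1.22 ± 0.16), the host of a neuronal miRNA, and Mir486, not called otherwise, was called with total FPKM as a term. A list of genes of the mitochondrial genome matched no row.

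CLK kinases and SR proteins, which set alternative splicing and respond to body temperature, were higher in DD in 10 of 16 and higher in LD in 1. Srsf11 ranged from 15.7 to 23.8 FPKM (median 18.8) in LD and 32.4 to 40.7 FPKM (median 35.7) in DD, a log2 difference of -0.88 ± 0.068 (SE, adjusted p = 1.02e-08). Clk1 (-0.99 ± 0.13), Srsf10 (-0.58 ± 0.086) and Clk4 (-0.67 ± 0.098) followed, and Srsf11 was called with total FPKM as a term. Cold-inducible and heat shock genes were higher in LD in 7 of 14 and in DD in 0. Hspe1 (0.69 ± 0.094 SE, adjusted p = 3.34e-06), Hspa8 (0.44 ± 0.082), Hsp90ab1 (0.35 ± 0.066) and Hspd1 (0.24 ± 0.059) had the smallest p-values, and Hspa1a, the heat-inducible form, was not called (2.91 to 4.81 FPKM in LD and 2.59 to 8.15 FPKM in DD). Of the cold-inducible members, Cirbp overlapped at 0 h only (65.4 to 95.3 FPKM in LD and 76.7 to 89.7 FPKM in DD). Rbm3 ranged from 31.3 to 90.95 FPKM in LD and 37.75 to 86.7 FPKM in DD. Scaled to equal sums, the list of cold-inducible and heat shock genes split 1 against 5.

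The ATF4 program, which cells start when an amino acid is missing, was higher in LD in 14 of 19 and higher in DD in 4 (median 0.36). Atf4 ranged from 74.2 to 97.5 FPKM (median 85.4) in LD and 44.8 to 57.4 FPKM (median 51.9) in DD, a log2 difference of 0.70 ± 0.067 (SE, adjusted p = 6.85e-08), and its targets Chac1 (5.75 to 8.52 FPKM in LD and 2.78 to 4.17 FPKM in DD), Ddit3 (0.70 ± 0.066) and Phgdh (0.58 ± 0.065), a serine synthesis enzyme, did not overlap between the sides. The cystine carrier Slc7a11 (-1.19 ± 0.13), the folate enzyme Aldh1l2 (-0.70 ± 0.071), Vldlr and Slc7a1 were higher in DD. The same list had a median of 0.33 in the Ctrl libraries of these times. Scaled to equal sums, it split 6 against 4, and Atf4 and Chac1 were called with total FPKM as a term.

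Genes of tryptophan use moved both ways, 4 of 12 higher in LD and 5 higher in DD. Over all genes 37.3% were higher in LD and 34.2% higher in DD. The counts of this list, of the NAD list and of the glucocorticoid-responsive list are near these shares. So are the LD counts of the SCN peptide, clock output, immediate early, ependymal and choroid plexus lists. The DD counts of the astrocyte and oligodendrocyte precursor markers given below are also near the share of all genes. The serotonin receptors Htr7 (7.75 to 12.9 FPKM in LD and 5.42 to 7.75 FPKM in DD), Htr1a (0.67 ± 0.11) and Htr2c (0.58 ± 0.11) and the kynurenine enzyme Ido1 (0.67 ± 0.17) were higher in LD. Ddc, the decarboxylase that makes serotonin and dopamine, ranged from 19.1 to 28.2 FPKM (median 21.7) in LD and 28.7 to 39.2 FPKM (median 31.6) in DD, a log2 difference of -0.50 ± 0.062 (SE, adjusted p = 1.35e-06), and Htr1b, Aanat, Afmid and Maoa were also higher in DD. With equal sums the list split 3 against 8, and Ddc was called with total FPKM as a term. The synthesis enzymes Tph1 and Tph2 and most kynurenine enzymes were under 0.5 FPKM on average. Of 13 NAD genes 4 were higher on each side (1 in LD and 6 in DD with equal sums), led by Sirt3 in LD (0.60 ± 0.056) and Cd38 in DD (-0.52 ± 0.079), with Nadsyn1 (-0.46 ± 0.074) and Nmnat2 (0.35 ± 0.057) next. Sterol synthesis genes were higher in LD in 10 of 18 and in DD in 3. Mvk (0.63 ± 0.073), Insig1 (0.48 ± 0.056) and Dhcr7 (0.30 ± 0.050) were higher in LD and Lss (-0.52 ± 0.063) in DD. The sterol list split 2 against 10 with equal sums. Glucocorticoid-responsive genes were divided, 4 of 13 on each side (0 in LD and 7 in DD with equal sums, 1 and 5 with equal upper quartiles), with Mt1 (0.42 ± 0.073) in LD and Zbtb16 (-1.15 ± 0.19), Plin4 (-1.05 ± 0.20) and Klf9 (-0.64 ± 0.16) in DD.

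Markers of glia followed their own orders. Oligodendrocyte markers were higher in LD in 9 of 10 (median 0.75), with Opalin at 37.3 to 51.6 FPKM (median 46.7) in LD and 7.96 to 35.7 FPKM (median 20.1) in DD (1.26 ± 0.16 SE, adjusted p = 2.13e-06), Cnp (0.78 ± 0.093), Mag (0.84 ± 0.14) and the myelin gene Mbp (0.86 ± 0.15). Their summed level was 1964 to 3349 FPKM in LD and 1016 to 2439 FPKM in DD. Mbp stood at 1273 FPKM in DD 0 h replicate 1, inside its LD range. Microglia markers were higher in LD in 6 of 8, among them C1qa (0.69 ± 0.070), Tmem119 (0.49 ± 0.056), C1qb (0.68 ± 0.082) and Aif1 (0.77 ± 0.096), at summed levels of 199 to 233 against 126 to 187 FPKM. With equal sums 4 were higher in LD and 2 in DD. Astrocyte markers were 1 higher in LD (Aldh1l1, 0.60 ± 0.068) and 3 higher in DD (Aqp4, -0.81 ± 0.11, Slc1a2 and Gfap) of 8. Precursors of oligodendrocytes had 1 of 6 in LD (C1ql1, 9.44 to 13.5 FPKM in LD and 2.86 to 4.86 FPKM in DD, 1.47 ± 0.092) and 2 in DD (Pdgfra and Cspg4). With equal sums 7 astrocyte and 5 precursor markers were higher in DD. C1ql1 was called with total FPKM as a term.

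Markers of vessels and coverings were more often higher in DD. Endothelial and mural markers were higher in DD in 5 of 8, with Rgs5 (-0.93 ± 0.12) and Slco1a4 (-1.02 ± 0.16), and in LD in 1 (Cldn5, 0.77 ± 0.21). Meningeal markers were higher in DD in 5 of 7, with Dcn (-1.41 ± 0.25) and Col1a1 (-0.61 ± 0.12), at summed levels of 11.5 to 19.3 in LD and 16.0 to 99.9 FPKM in DD. Ependymal and tanycyte markers divided, 3 of 7 higher in LD (Ccdc153, Rarres2 and Tmem212), and the tanycyte genes Rax and Col23a1 in DD. The count in LD was 0 with equal sums, 0 without the 8 h libraries and 1 without the 4 h libraries, and that in DD was 2 in each. Choroid plexus markers had Otx2 (1.38 ± 0.11) and Clic6 (0.56 ± 0.085) in LD and Kl (-0.85 ± 0.11) in DD, of 5, while Ttr, the defining transcript of that tissue, lay between 0.641 and 43.5 FPKM and was not called. Otx2 was called with total FPKM as a term. Of 5 blood markers Alas2 and Ptprc were higher in DD, and Hba-a1 ranged from 167 to 1767 FPKM (median 303) in LD and 194 to 1784 FPKM (median 788) in DD.

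**Figure D5:**
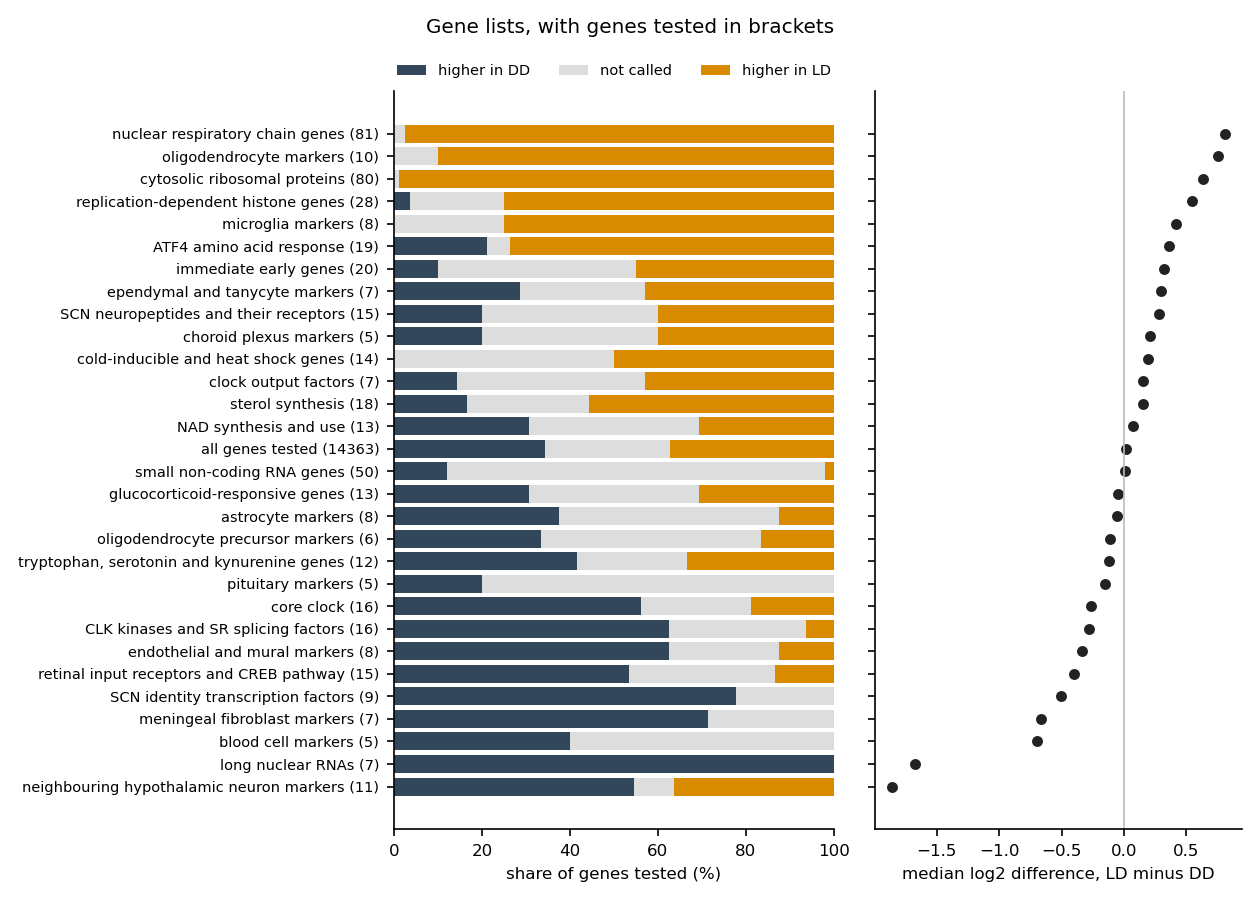
Gene lists ordered by their median log2 difference of LD minus DD (right, x axis), with the percentage of genes tested that were higher in DD, not called and higher in LD (left, x axis). Respiratory chain, oligodendrocyte and ribosomal genes sit at the top, at medians of 0.81, 0.75 and 0.64, and long nuclear RNAs and neighbouring hypothalamic neurons at the bottom, at -1.67 and -1.86.

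The 3 times gave like numbers of called genes, 7095 (49.4%) at 0 h, 7287 (50.7%) at 4 h and 7309 (50.9%) at 8 h. A change of the light difference between the times was called for 0 of 14363 genes (0%) by limma, with 322 at an unadjusted p under 0.05. Mfsd2a, a lipid transporter of the blood-brain barrier, came nearest (adjusted p = 0.239), with 8.81, 8.05 and 9.44 FPKM in LD and 7.19, 7.27 and 8.53 in DD at 0 h, and 8.43, 8.33 and 8.97 against 14.9, 13.4 and 15.6 FPKM at 8 h. Gm16701, Xlr3a, Gm10421 and Gm15867 were next. Without DD 8 h replicate 2 the small nucleolar RNA Snora15 was called.

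The light difference was set beside that of the Ctrl diet at the same times, whose 18 libraries are separate. Of 10231 genes called here and tested there, 9920 (97%) had the same sign, and the differences correlated over 14273 genes (r = 0.917, genes are not independent). A difference of the light effect between the diets was called for 327 of 14381 genes (2.27%). In 195 of these the effect was smaller in absolute size on the -Trp diet. In 102 of the 327 the effect had opposite signs on the diets. The difference, -Trp minus Ctrl, was positive in 199 and negative in 128. Zbed5, a transposon-derived gene that overlaps Phkg1, had 0.41 on the -Trp and 1.03 on the Ctrl diet (difference -0.61 ± 0.096, adjusted p = 0.00497). Fam133b had -0.043 on the -Trp and 0.37 on the Ctrl diet (difference -0.41 ± 0.077, adjusted p = 0.0202), Tpm4, a tropomyosin, 0.028 on the -Trp and 0.36 on the Ctrl diet (difference -0.33 ± 0.062, adjusted p = 0.0202), the pseudogene E030024N20Rik 0.16 on the -Trp and 0.82 on the Ctrl diet (difference -0.66 ± 0.12, adjusted p = 0.0202) and Scd3, a fatty acid desaturase, 0.22 on the -Trp and -0.28 on the Ctrl diet (difference 0.50 ± 0.096, adjusted p = 0.0202). Among clock genes Per1 had -0.28 on the -Trp and -0.63 on the Ctrl diet (difference 0.35 ± 0.092, adjusted p = 0.0399) and Cry2 had 0.18 on the -Trp and -0.092 on the Ctrl diet (difference 0.28 ± 0.068, adjusted p = 0.0324). Srsf11 had -0.88 on the -Trp and -0.41 on the Ctrl diet (difference -0.47 ± 0.12, adjusted p = 0.0399), the chaperone Hspa5 had 0.058 on the -Trp and 0.38 on the Ctrl diet (difference -0.32 ± 0.082, adjusted p = 0.0385), and Gria1, Rpl22 and Rpl39 were the other list members called. The count moved by over 1.5 times with single libraries, to 12 without DD 8 h replicate 2, 30 without LD 4 h replicate 1, 38 without LD 8 h replicate 3, 83 without DD 0 h replicate 1, 129 without DD 4 h replicate 2, 194 without LD 8 h replicate 2, 206 without DD 4 h replicate 1, 217 without LD 4 h replicate 3, 533 without LD 8 h replicate 1, 633 without DD 0 h replicate 2, 638 without DD 8 h replicate 3, 717 without LD 0 h replicate 1.

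The light difference of the day was also set beside that at 12, 16 and 20 h on the same diet. Of 10235 called genes tested in both, 10052 (98.2%) kept their sign. A change of the light difference between the earlier and later times was called for 41 of 14404 genes (0.285%). In 32 of these the light difference was smaller in absolute size at 0 to 8 h, and in 16 of the 41 its sign was opposite. The change, earlier minus later, was positive in 21 and negative in 20. Srsf5, an SR splicing factor, stood first. In LD it had means of 126 ± 14, 157 ± 6.9 and 141 ± 3.6 FPKM (SD, n = 3) at 0, 4 and 8 h and 104 ± 4.0, 82.8 ± 9.0 and 85.3 ± 4.3 FPKM at 12, 16 and 20 h, while in DD it stayed between 164 and 190 FPKM. Its light difference was -0.27 by day and -0.999 later (difference 0.73 ± 0.078, adjusted p = 1.41e-06). Gm3264 had 0.13 by day and -0.71 later (difference 0.84 ± 0.14, adjusted p = 0.0109), 4933421O10Rik -0.19 by day and -0.62 later (difference 0.42 ± 0.074, adjusted p = 0.0109), Gpt2, which makes alanine and glutamate, -0.10 by day and 0.51 later (difference -0.61 ± 0.11, adjusted p = 0.0196), and Shtn1 0.19 by day and -0.33 later (difference 0.52 ± 0.097, adjusted p = 0.0196). Rpl30, the other list member called, had 0.81 by day and 0.021 later (difference 0.79 ± 0.17, adjusted p = 0.0297). On the Ctrl diet Srsf5 had 114 ± 14, 145 ± 4.9 and 139 ± 11 FPKM in LD by day and 87.8 ± 11 FPKM at 16 h. The count of 41 became 13 without LD 8 h replicate 2, 16 without DD 8 h replicate 3, 17 without DD 4 h replicate 1, 21 without LD 4 h replicate 3, 22 without DD 8 h replicate 1, 23 without LD 8 h replicate 1, 23 without LD 4 h replicate 2, 25 without LD 8 h replicate 3, 25 without DD 0 h replicate 2, 27 without LD 0 h replicate 1, 64 without LD 0 h replicate 3, 71 without DD 0 h replicate 1.

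By the names of the columns the comparison uses 18 other libraries. By the placement these are control libraries of 8, 12 and 16 h, all among the 36 placed by equal values. Those named -Trp LD are placed as Ctrl DD, and those named -Trp DD as Ctrl LD. Under the placement the comparison by name is thus a light comparison on the Ctrl diet with its sides swapped. There 9950 of 14448 genes (68.9%) were called, and of 10230 genes called here and tested there 226 (2.21%) had the same sign. Per3 was 1.19, Lhx8 -3.91, Pmch 3.05 and Meg3 2.22 on the log2 scale, LD minus DD. The sign was opposite for 10004 of the 10230 (97.8%). Which placement is right for the 18 libraries compared here was not tested.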

How the data were processed

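SCN RNA of male mice was sequenced in 72 libraries, of which 18 were compared here. The submitters' processing notes name Trimmomatic, TopHat and Cufflinks and the build mm10, with no versions given in the sources used here. The deposited values are FPKM, which the authors computed per gene and library. Depth is unknown, and FPKM divides by transcript length, so length and total FPKM bear on every value. No columns of the authors' own comparisons were used.

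Libraries were scaled by the median of ratios over all 72, genes averaging under 0.5 FPKM in the compared libraries were dropped, and log2(FPKM + 0.5) was fitted with limma 3.58.1 (R 4.3.3) with a mean-variance trend, time as a factor and Benjamini-Hochberg adjustment. A gene was called at an adjusted p under 0.05. Fold changes are on the log2(FPKM + 0.5) scale, which understates those of low genes. The differences of the light effect between the 3 times, the diets, and earlier and later times were interaction terms. The scripts were tested on simulated data. Python 3.11.15 with pandas 2.3.3, numpy 2.4.6, scipy 1.17.1 and matplotlib 3.10.9 made the other values. Genes were placed with GENCODE M21 (GRCm38), and promoters came from RefSeq (GRCm38.p6).

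Named genes were the 12 largest differences in each direction among called genes whose libraries did not overlap at each time, all genes of the clock, neuropeptide and SCN identity lists, up to 4 genes of smallest p in every other list, the 5 smallest p of each difference between effects and the 10 genes adding most to the difference in total FPKM. Some of these genes are not reported here. Others were chosen after their values were seen. The members and lists were chosen with earlier results of these data known. Nothing says more of the replicates than 3 mice per group and time. Alternatives were other pseudocounts, scalings, filters and moderation, a replicate block, total FPKM as a term, columns as named and leaving out libraries.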

Additional observations from a re-analysis of the deposited data

Results flagged for a closer look

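Among the named genes and total FPKM, 1 library stood apart from the other 8 of its side in 25 of 122 groups of 9, by a gap to its nearest neighbor past the critical share of the whole range in the test of Dixon. Chance flags about 1 in 20 groups, and groups of genes from 1 library are not independent. In DD 4 h replicate 2 the gap as a share of the range was 0.712 for total FPKM, 0.573 for Zim1, 0.795 for Zbed6, 0.539 for Ipw, 0.515 for Cdr1, 0.613 for Ago3, 0.651 for Zbed5 and 0.581 for Clock. In DD 0 h replicate 1 the gap as a share of the range was 0.7 for Lhx8, 0.699 for Lhx6, 0.611 for AI606473, 0.686 for Chat, 0.617 for Shtn1 and 0.627 for Bhlhe40. In DD 0 h replicate 2 the gap as a share of the range was 0.634 for the second row of Gm21586 and 0.623 for Gm21586. In LD 8 h replicate 3 the gap as a share of the range was 0.708 for Pmch, 0.687 for Parpbp and 0.649 for Bhlhe40. In LD 0 h replicate 2 the gap as a share of the range was 0.581 for Zbed6, 0.538 for Ago3, 0.549 for Arntl and 0.68 for Npas2. In LD 4 h replicate 2 the gap as a share of the range was 0.658 for Col23a1 and 0.843 for Rax. The light difference on the -Trp diet minus that on the Ctrl diet passed the test of the difference, with log2 values of -0.61 for Zbed5, -0.41 for Fam133b, -0.33 for Tpm4, -0.66 for E030024N20Rik and 0.50 for Scd3. The light difference at 0 to 8 h minus that at 12 to 20 h passed likewise, with log2 values of 0.73 for Srsf5, 0.84 for Gm3264, 0.42 for 4933421O10Rik, -0.61 for Gpt2 and 0.52 for Shtn1.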

How the results depend on the processing

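The numbers of genes called higher in LD and in DD each stayed within 1.5 times under other pseudocounts, filters, moderation and the upper quartile scaling, but more genes were higher in DD than in LD with equal upper quartiles (4184 in LD and 6138 in DD) and without a filter (5599 and 6004). Single genes were run for 55 results (the largest differences, both clock lists and the differences between effects), and those whose sign turned are given here. Calls that were lost or gained with the sign kept are not listed. Other list genes were not run singly, and the cause was not tested. With total FPKM as a term the number called fell to 946 (518 in LD and 428 in DD), and with the same sum of FPKM for every library the counts were 2182 in LD and 8596 in DD. Of 10267 called genes tested there, 1753 (17.1%) had the opposite sign with the same sum, 485 of them called. With columns as named, the sign turned, with log2 differences of -3.91 for Lhx8, -3.42 for Lhx6, -2.83 for AI606473, -2.74 for Chat, -2.09 for Ngfr, -2.05 for Slc10a4, -2.23 for Pvalb, -2.04 for Slc18a3, -2.27 for the second row of Gm21586, -2.28 for Gm21586, 3.05 for Pmch, 2.05 for Parpbp, 2.58 for Npvf, 2.05 for Zim1, 2.60 for Zbed6, 2.87 for Col23a1, 2.57 for Ipw, 2.31 for Rax, 2.48 for Rreb1, 2.50 for Cdr1, 2.27 for Ago3, 2.06 for 4933403O08Rik, 0.26 for Arntl, 0.81 for Clock, 0.43 for Per1, 0.56 for Per2, 1.19 for Per3, -0.44 for Cry1, -0.15 for Nr1d1, 0.19 for Nr1d2, 0.37 for Rora, 0.033 for Rorb, -0.063 for Csnk1d, 0.34 for Fbxl21, 0.70 for Timeless, -0.55 for Dbp, 0.18 for Tef, -0.060 for Hlf, -0.43 for Nfil3, 0.12 for Bhlhe40, -0.16 for Bhlhe41, -0.063 for Ciart, -0.071 for the diet difference of Scd3, -0.0094 for the earlier against later difference of Gm3264 and -0.034 for the earlier against later difference of Shtn1. With the same sum for every library, the sign turned, with log2 differences of -0.13 for Npas2, -0.047 for Cry1, -0.16 for Cry2, -0.28 for Csnk1d, -0.30 for Csnk1e, -0.087 for Hlf, -0.050 for Nfil3, -0.30 for Bhlhe41 and -0.17 for Ciart. Without the 0 h libraries (times left out after seeing the data), the sign turned, with a log2 difference of -0.028 for Npas2. With total FPKM as a term, the sign turned, with log2 differences of 0.067 for Nr1d2, 0.045 for Fbxl21, -0.14 for Nfil3 and -0.091 for Bhlhe41. With the same upper quartile, the sign turned, with log2 differences of -0.048 for Csnk1d, -0.066 for Csnk1e and -0.086 for Bhlhe41. Without the 4 h libraries, the sign turned, with log2 differences of -0.019 for Csnk1e and 0.082 for Bhlhe40. Without scaling, the sign turned, with a log2 difference of 0.085 for Bhlhe40. Without the 8 h libraries, the sign turned, with a log2 difference of -0.048 for Bhlhe41. With 1 library left out in turn, Bhlhe40 ran from -0.049 to 0.027. The count by diet was 166 without scaling, 161 without a filter and 11431 with columns as named, and the count of earlier against later times was 0 with columns as named. Leaving out each library in turn gave 12 to 717 (light by diet, genes called), 13 to 71 (earlier against later times, genes called), 0 to 1 (light by time, genes called), 5661 to 7452 (light level at 0 h, genes called), 5373 to 8180 (light level at 4 h, genes called), 5902 to 7677 (light level at 8 h, genes called), 9943 to 10411 (light level, genes called), 4724 to 4964 (light level, genes called higher in DD), 5212 to 5447 (light level, genes called higher in LD) and 117322 to 129979 (total FPKM, LD minus DD). The replicate numbers were not taken as pairs in the main fit. Yet deviations of libraries with the same number correlated at 0.0266 to 0.298 over 9 pairs, 6 of them over 0.1. Of 18 libraries 13 correlated best with their own number, where random matching would give about 1 in 3. What like numbers share was not tested. With the replicate block the level count was 10153, the count by diet 287, the count of earlier against later times 26 and the count by time 0. Depth is unknown for FPKM, so no counting error could be given for low genes, and differences under 0.5 FPKM are understated by the value added before logs.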
